A study of Rattus norvegicus with 31 samples.

Results

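The comparison set the tail motor neurons of 8 rats (Spi-60) whose spinal cord had been transected at the sacral S2 segment 60 days earlier against those of 4 uninjured rats (Control). Its members were the 12 arrays that the labels name Spi-60 and Spi-0, out of 31 arrays in the series, and all 12 were used. The other 19 arrays came from rats taken 2, 7 or 21 days after the same lesion (Spi-2, Spi-7 and Spi-21) and entered only the common estimate of spread and the values given side by side. All rats were adult male Wistar, each array stood for 1 animal, and the RNA came from 100 to 200 neurons per animal that had taken up the retrograde tracer Fluoro-Gold and were cut by laser out of the cord below the lesion, then amplified over successive rounds. Control tissue was collected and hybridised for the present study, whereas Spi-60 (like Spi-21) was carried over from an earlier one, so that time after injury and study cannot be told apart in any difference between Spi-60 and Control. A laser cut takes in what lies against the cell, so that RNA of neighbouring cells is part of the sample, and on such an array fewer cells of a type and less RNA per cell cannot be told apart.

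Motor neurons of the sacrocaudal cord drive the tail muscles. After a transection above them they lose all input from the brain, are silent at first, and over the following weeks become easily excited, with long-lasting depolarisations that let a brief touch set off a sustained contraction. The channels and receptors that set this excitability, the transmitters that inhibit it, and the machinery that keeps a large cell with a long axon supplied with energy and protein are therefore the groups by which the values are ordered here.

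All values are RMA summaries of Affymetrix probe sets on the log2 scale, on which a difference of 1 is a 2-fold change. A probe set was called at a Benjamini-Hochberg adjusted p under 0.05 (two-sided) in the limma fit to all 31 arrays, and every adjusted p below is that of this fit over 12913 probe sets. Each difference is given ± its SE, and each mean ± the SD of the animals. Control values are listed in the order of their replicate numbers and Spi-60 values as the lowest, the median and the highest of the 8 animals.

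Some array-wide values moved with the group. The difference between the probe sets at the 3′ and the 5′ end of the Gapdh transcript, which grows as RNA is degraded or incompletely copied, was 2.01 ± 0.33 (SD, n = 4) in Control and 3.49 ± 0.35 (SD, n = 8) in Spi-60, and the groups did not overlap (1.80 to 2.50 and 2.99 to 3.97, exact permutation test, two-sided, p = 0.00404, 0.00808 after adjustment over 4 measures). The same difference for beta-actin ran from 2.76 to 3.16 and from 3.01 to 3.90 (exact p = 0.0121, adjusted 0.0162). The interquartile range of an array lay between 1.95 and 2.03 in Control and between 1.81 and 1.93 in Spi-60 (exact p = 0.00404, adjusted 0.00808), while the array medians, at 6.00 to 6.04 and 5.99 to 6.04, overlapped (exact p = 0.19). With the Gapdh difference as a covariate the calls dropped from 2207 to 267, of which 242 were among the 2207. Each gene named below that also passed that fit is marked. The Gapdh difference moved with the group, so a call lost in that fit need not mean a smaller difference between the groups. With the beta-actin difference, which overlaps between the groups, 1471 probe sets were called.

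**Figure D1:**
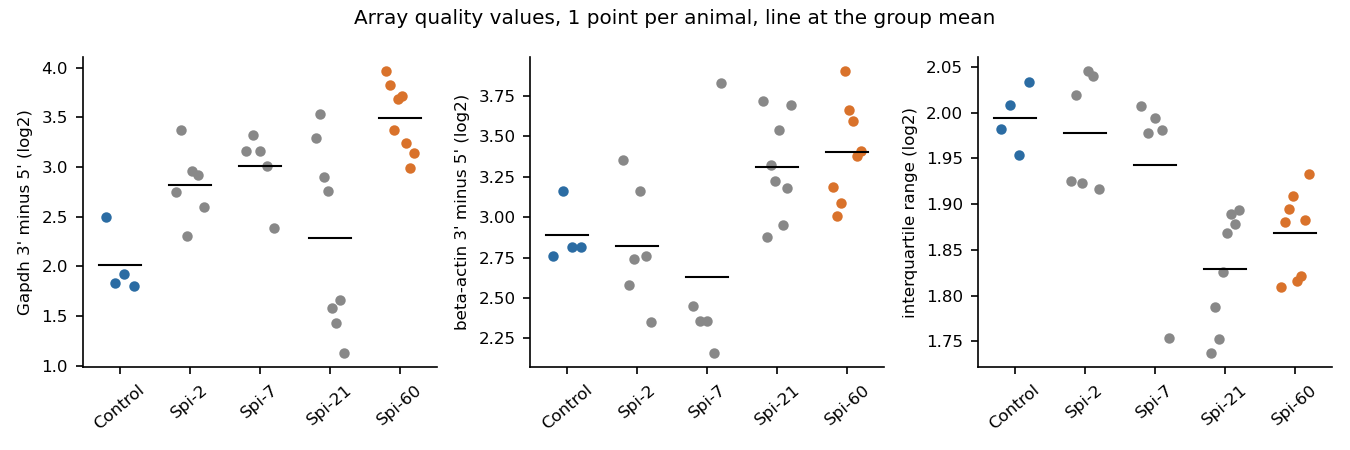
With 1 point per animal and a line at each group mean, the panels plot, for the 5 groups on the x axis, the 3′ minus 5′ difference of the Gapdh control probe sets, that of beta-actin, and the interquartile range of the array (all log2). All 8 Spi-60 animals lie above the 4 Control animals in the Gapdh panel and below them in the last one.

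At day 60, 2207 of 12913 probe sets were called (17.1%), 930 higher (7.2%) and 1277 lower (9.89%). The falls were larger, with a median of -0.71 against 0.50 for the rises, and 212 falls but 45 rises reached a difference of 1. The probe sets that fell also started brighter, at a median Control level of 7.81 against 6.56 for those that rose and 6.00 for all, and the median difference of all probe sets was 0.00. Counted by gene, with the brightest probe set standing for each of 9769 genes, 775 rose (7.93%) and 1046 fell (10.7%), and the animals of 581 genes were all higher (5.95%) and of 787 all lower (8.06%) than every Control animal. A further quantile normalization left 2093 calls and turned the balance, to 1154 higher and 939 lower, so that the excess of falls rests on the scaling. A single probe set, for the RNA-binding protein Zcrb1, separated all 16 arrays of the earlier study from all 15 of the present one (mean 7.95 in Control, 7.99 at day 2 and 7.85 at day 7, 7.12 at day 21 and 6.65 at day 60), a count that does not measure the size of a difference between the studies.

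The 15 largest falls among called probe sets whose animals did not overlap (7.46% of all probe sets were lower without overlap) lay between -2.10 and -1.44. Cnr1, the cannabinoid CB1 receptor that damps transmitter release, led them. Its level was 7.36, 7.45, 7.79 and 6.11 in Control and 4.69, 5.14 and 5.49 in Spi-60, a difference of -2.10 ± 0.25 (adjusted p = 5.52e-06), and it passed with the Gapdh covariate. The Control animal nearest to the Spi-60 range was replicate 4. Rnf227, a RING finger protein, showed the same spacing, with 8.55, 8.08, 8.43 and 6.60 in Control against 5.61, 5.91 and 6.11 (-2.01 ± 0.29, adjusted p = 5.71e-05), again with replicate 4 closest. Gpm6a, a membrane glycoprotein of neurites, stood at 10.16, 10.29, 10.41 and 9.15 in Control and 7.35, 8.53 and 8.97 in Spi-60 (-1.63 ± 0.28, adjusted p = 0.000294). Rnf227 and Gpm6a passed with the Gapdh covariate too. Cnr1 and Rnf227 were called lower in every injured group. Against the same 4 controls Cnr1 differed by -1.91, -1.79 and -2.15 at days 2, 7 and 21, and Rnf227 by -1.69, -1.72 and -2.07 at days 2, 7 and 21.

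In other falls the Control animals lay close together. Lrrc4c, the netrin-G ligand of excitatory synapses, had the narrowest Spi-60 range of the 15. It read 7.74, 8.12, 7.84 and 7.97 in Control and 6.42, 6.47 and 6.53 in Spi-60 (-1.44 ± 0.15, adjusted p = 1.08e-06), and the gap between the groups was wider than the range of either. Cfap36 read 9.32, 9.35, 9.21 and 9.39 in Control and 7.09, 7.80 and 8.31 in Spi-60 (-1.46 ± 0.25). Both passed with the Gapdh covariate, as did the acetyltransferase Kat2b (-1.45 ± 0.28), the syntaxin-binding protein Stxbp3 (-1.44 ± 0.27) and the cortexin Ctxn2 (-1.46 ± 0.28). Kcnc2, a fast delayed-rectifier potassium channel that allows high firing rates, was 8.02, 7.43, 8.24 and 7.24 in Control and 4.92, 5.83 and 7.12 in Spi-60 (-1.68 ± 0.38, adjusted p = 0.00285). Its highest Spi-60 animal lay just under the lowest Control animal, and its 3 dimmer probe sets did not pass (-0.02 to 0.15). The homeobox factor Meis2 (mean 7.83 in Control and 5.83 in Spi-60), the calcyclin-binding protein Cacybp (-1.99 ± 0.40), the Fas inhibitor Faim (-1.72 ± 0.34), the F-box protein Fbxo33 (-1.55 ± 0.26), the promoter-binding protein Gpbp1 (-1.49 ± 0.31) and the membrane protein Tmem178a (-1.49 ± 0.32) complete the 15. These 6 and Kcnc2 lost the call with the Gapdh covariate. Dimmer probe sets of Cnr1, Rnf227, Kat2b and Gpbp1 did not pass, whereas both of Fbxo33 (-1.05 ± 0.21 and -0.38 ± 0.12) and that of Cacybp (-0.39 ± 0.10) fell.

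The 15 largest rises among non-overlapping called probe sets (5.33% of all were higher without overlap) ran from 1.17 to 2.70. Ngfr, the low-affinity neurotrophin receptor p75, was the largest at 6.5-fold. Its Control animals read 5.27, 5.52, 5.82 and 5.61 and its Spi-60 animals 7.18, 8.22 and 9.23 (2.70 ± 0.60, adjusted p = 0.00245). No Control animal came within 1 log2 unit of the lowest Spi-60 animal. Next came Ifitm3, an interferon-induced membrane protein (1.88 ± 0.33), and Gfap, the intermediate filament of astrocytes, at 9.13, 8.77, 9.52 and 8.06 against 9.83, 10.77 and 11.89 (1.83 ± 0.40, adjusted p = 0.00211). The matrix metalloproteinase Mmp3 rose by 1.77 ± 0.39 and Csf1r, the receptor that maintains microglia and macrophages, by 1.48 ± 0.38. At days 2, 7 and 21 Ngfr differed from the same controls by 2.64, 2.95 and 1.88, and Csf1r by 2.02, 1.55 and 0.78.

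Several other rises were in bright neuronal genes. The annexin Anxa6, which binds membranes when calcium rises, was 9.16, 9.05, 8.95 and 9.41 in Control and 10.61, 10.97 and 11.41 in Spi-60 (1.82 ± 0.21, adjusted p = 5.52e-06). The neurosecretory protein Vgf was 9.74, 10.20, 10.43 and 10.31 in Control and 11.34, 11.72 and 12.11 in Spi-60 (1.58 ± 0.30, adjusted p = 0.00074). Both groups were narrow and well apart. Pcsk1n, the proSAAS inhibitor of prohormone cleavage, rose by 1.32 ± 0.31, the synaptotagmin Syt3 by 1.26 ± 0.26, the neuronal deubiquitinase Uchl1 by 1.25 ± 0.18 and the neuronal adaptor subunit Ap3b2 by 1.17 ± 0.15. Rundc3a (1.37 ± 0.20), the palmitoyltransferase Zdhhc18 (1.31 ± 0.21), the sugar transporter Slc45a1 (1.27 ± 0.24) and the IGF-binding protein Igfbp6 (1.17 ± 0.31) complete the list. Anxa6, Uchl1, Ap3b2, Rundc3a and Zdhhc18 also passed with the Gapdh covariate, and the other 10 did not. Slc45a1 was near Control early (-0.07, -0.18 and 0.76 at days 2, 7 and 21). Pcsk1n was so too (0.16, 0.06 and 1.08 at days 2, 7 and 21), while Zdhhc18 was already up (1.10, 1.13 and 1.22 at days 2, 7 and 21). The arrays of days 2 and 7 shared a study with Control, whereas those of day 21 came from the earlier study. For Slc45a1 and Pcsk1n a late rise and a difference between the studies therefore cannot be told apart.

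**Figure D2:**
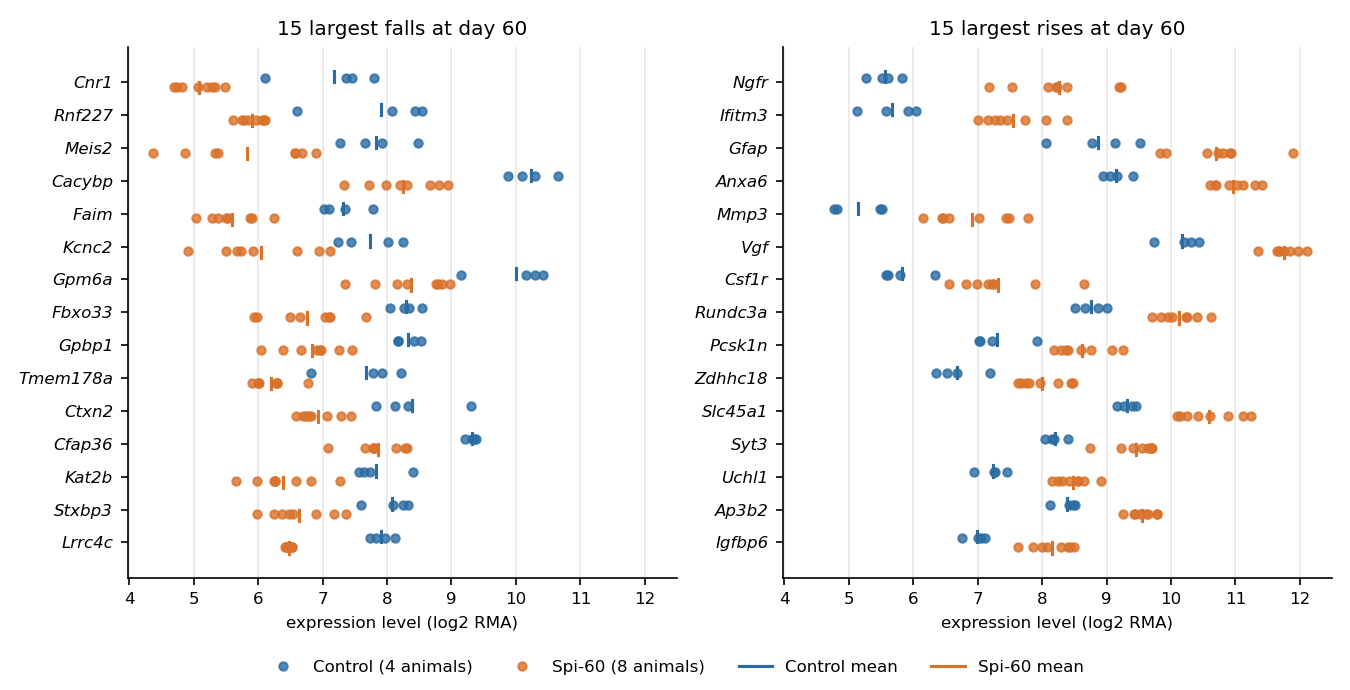
Each point is 1 animal (Control above, Spi-60 below) and each tick a group mean for the 15 genes with the largest falls (left) and rises (right) among those called whose animals did not overlap, with the expression level (log2 RMA) on the x axis. Lrrc4c has the tightest Spi-60 animals of the falls, and Ngfr has the widest shift of the rises, 2.70.

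The samples carried the marks of motor neurons in both groups. The neurofilament Nefh was among the brightest probe sets, at 14.18 ± 0.16 (SD, n = 4) in Control and 14.20 ± 0.13 (SD, n = 8) in Spi-60. Prph, the peripherin filament of neurons that leave the cord, stood at 11.66, 11.98, 12.05 and 12.71 in Control and 12.57, 12.91 and 13.17 in Spi-60 and rose by 0.79 ± 0.18 (adjusted p = 0.00291). Slc5a7, the choline transporter that feeds acetylcholine synthesis, went the other way, from 11.11, 11.64, 11.65 and 11.76 in Control to 9.62, 10.52 and 11.13 in Spi-60 (-1.06 ± 0.29, adjusted p = 0.0112), the vesicular acetylcholine transporter Slc18a3 did not pass (0.67 ± 0.25, adjusted p = 0.0646), and neither did Calca, the precursor of CGRP (-0.15 ± 0.39, adjusted p = 0.841). Slc18a3 and Calca were chosen after their values were seen. Nrg1, a growth factor found at cholinergic synapses on motor neurons, rose by 0.76 ± 0.26, whereas its 3 dimmer probe sets did not pass (-0.04 to 0.20), and its call was lost without Control replicate 1, 3 or 4 and without Spi-60 replicate 3, 4, 6 or 7. Of 11 motor neuron genes 2 were higher and 1 lower (18.2% and 9.09%, against 7.93% and 10.7% of all genes). Their mean level per animal lay between 7.91 and 8.44 in Control and between 7.97 and 8.29 in Spi-60. Chat and Mnx1 were not analysed here. Over 12 general neuron genes the mean level was 9.54 to 9.86 and 9.76 to 10.07, with Uchl1 and Syp higher.

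Markers of other cells were present and moved too. Of 14 transmitter genes of interneurons 5 fell and none rose (35.7% lower against 10.7% of all genes). Their median was -0.23, against 0.00 over all genes, and at an unadjusted limma p under 0.05 the counts were 6 and 0. Gad1, which makes GABA, was 9.96, 9.72, 9.71 and 7.24 in Control and 6.40, 6.99 and 8.75 in Spi-60 (-2.05 ± 0.59, adjusted p = 0.0162), Slc17a6, which loads glutamate into vesicles, was 9.46, 9.35, 8.93 and 7.31 in Control and 6.13, 7.02 and 8.16 in Spi-60 (-1.76 ± 0.42, adjusted p = 0.00411), and the enkephalin precursor Penk was 9.14, 9.12, 8.89 and 6.67 in Control and 6.31, 6.84 and 7.41 in Spi-60 (-1.62 ± 0.36, adjusted p = 0.00268). In all of them 3 Control animals were high and the remaining one, replicate 4, lay inside the Spi-60 range. Replicate 4 also lay inside it for the other 2 genes that fell, Slc32a1, the vesicular transporter of GABA and glycine (-1.54 ± 0.39), and the calcium buffer Calb1 (-0.80 ± 0.16). Penk, Slc32a1 and Calb1 passed with the Gapdh covariate. The mean level of the 14 genes was 7.14, 6.91 and 6.86 in Control replicates 1 to 3, 6.09 in replicate 4 and 5.90 to 6.28 in Spi-60.

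Myelin genes showed the same spacing. Of 15 oligodendrocyte genes 6 fell and none rose (median -0.49, unadjusted 9 and 0), among them Ermn (-1.27 ± 0.34), the autotaxin Enpp2 (-0.97 ± 0.28), the carbonic anhydrase Car2 (-0.81 ± 0.18) and Mog (-0.74 ± 0.23). Cldn11, the claudin of myelin and the brightest of them, was 12.16, 12.14, 12.22 and 11.47 in Control and 10.46, 11.20 and 11.98 in Spi-60 and did not pass (-0.75 ± 0.27, adjusted p = 0.051). Their mean level was 8.27, 8.21 and 8.21 in Control replicates 1 to 3, 7.60 in replicate 4 and 7.25 to 7.98 in Spi-60. Replicate 4 had the lowest Control mean in each of the 7 lists of other cell types and the highest in the motor neuron and general neuron lists. Without it 6 interneuron and 9 oligodendrocyte genes were lower, without replicate 1 it was 3 and 2, and without replicate 2 or 3 there were 3 of the oligodendrocyte genes. With the Gapdh covariate no oligodendrocyte gene was called, though the list median was -0.57 in that fit against -0.49 without the covariate. After further quantile normalization 2 were called. How far these neighbouring cells account for the other falls was not tested.

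Glial and immune markers rose in part. Of 16 microglia and macrophage genes 4 rose and none fell (25.0% against 7.93% of all genes, median 0.38, unadjusted 5 and 0), Csf1r, the fractalkine receptor Cx3cr1 (0.38 ± 0.11), Trem2 (0.37 ± 0.12) and the complement component C1qb (0.48 ± 0.16). The list mean did not overlap between the groups (5.78 to 6.08 and 6.13 to 7.27), nor did those of unrelated lists such as apoptosis and zinc fingers. With the Gapdh covariate none of the 16 was called and the list median was 0.07. Without Control replicate 2 a single gene of the list rose, and without Control replicate 4 there were 2. The brightest, the lysozyme Lyz2, read 8.67, 8.24, 8.95 and 7.86 in Control and 8.22, 8.60 and 10.19 in Spi-60 (0.36 ± 0.61, adjusted p = 0.741). Of 12 astrocyte genes Gfap alone rose and Acsl6 alone fell (-0.63 ± 0.17), and Aldoc, the brightest, did not pass (0.10 ± 0.17). Among 12 genes of vessels and fibroblasts the drug pump Abcb1a fell (-0.74 ± 0.22) and Vwf, the brightest, did not pass (0.00 ± 0.38). Of 11 blood cell genes Cd8a rose by 0.28 ± 0.09 near the bottom of the scale, and the brightest, the globin Hbb, did not pass (-0.60 ± 0.29). None of 5 Schwann cell genes was called by limma (1 at an unadjusted p under 0.05), with Pmp22 at -0.13 ± 0.20.

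**Figure D3:**
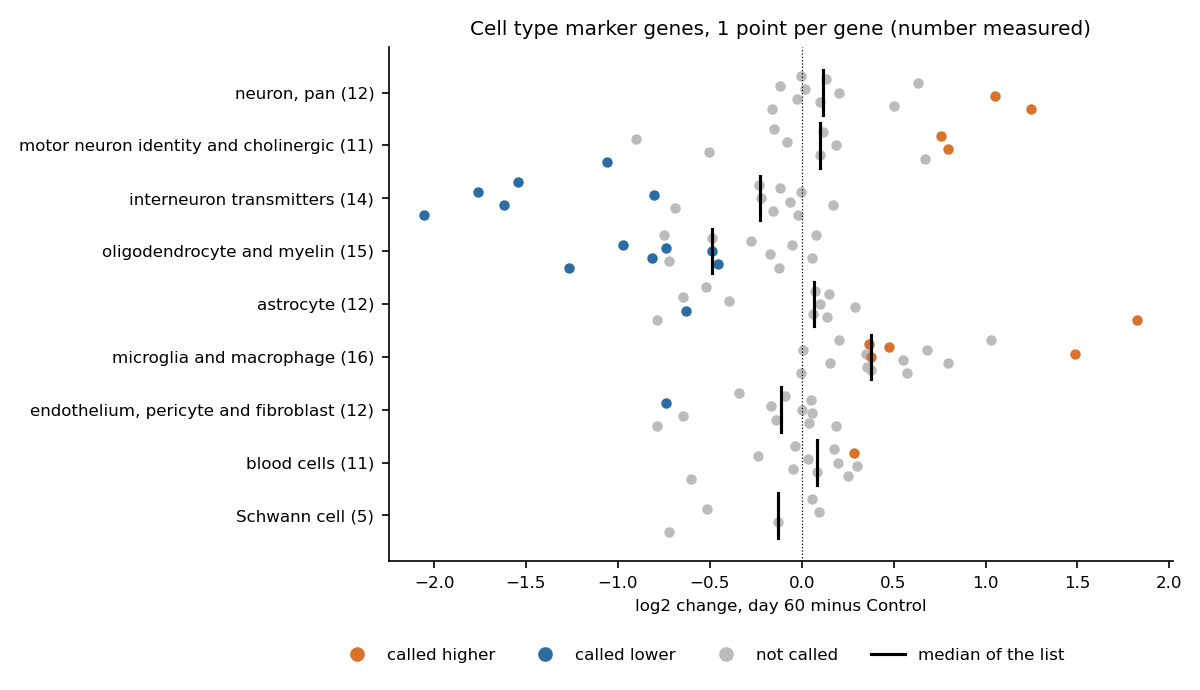
Each point is 1 gene and each bar the median of its list, with the number of measured genes in brackets and the log2 difference between day 60 and Control on the x axis. The called interneuron and oligodendrocyte genes all lie left of 0, the called microglia genes all lie right of it, and the motor neuron list has calls on both sides.

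The lists of respiration, of both ribosomes and of the nucleolus held more falls than rises. Of 74 oxidative phosphorylation genes 28 were lower and 6 higher (37.8% lower against 10.7% of all genes, median -0.33). The list was bright, at a mean Control level of 9.59 against a median of 6.00 over all probe sets. So were the mitochondrial ribosome, cytosolic ribosome, chaperone and proteasome lists (8.30, 9.70, 8.57 and 8.77). Falls were mostly bright, as the fit to bright probe sets alone called 1196 lower, against 1277 over all. The 10.7% is thus a low reference for these lists, and a share over genes of like level was not computed. Cox7b, a subunit of cytochrome oxidase, was 10.57, 10.77, 10.59 and 10.51 in Control and 9.26, 9.55 and 9.86 in Spi-60 (-1.08 ± 0.12, adjusted p = 4.39e-06). The complex I subunit Ndufb5 was 11.97, 12.01, 12.20 and 12.01 in Control and 11.06, 11.27 and 11.41 in Spi-60 (-0.80 ± 0.10, adjusted p = 7.24e-06). In neither gene, both named for their small p, did the animals overlap (8.06% of all genes were lower without overlap). Both passed with the Gapdh covariate, as did Ndufaf5 (-0.77 ± 0.11) and Ndufb3 (-0.74 ± 0.11). Under that covariate 6 genes of the list were lower and 1 higher. Of 22 tricarboxylic acid cycle genes 5 were lower and none higher (unadjusted 11 and 1). They included the succinate-CoA ligase subunits Sucla2 (-0.86 ± 0.16) and Suclg1 (-0.68 ± 0.14), the dihydrolipoamide dehydrogenase Dld (-1.17 ± 0.30) and Sdha (-0.53 ± 0.12). None of the list was called under the covariate, where its median was -0.30 against -0.33 without the covariate. Of 27 glycolysis genes 3 rose and none fell (11.1% higher against 7.93% of all genes, unadjusted 7 and 2). They were the enolase Eno1 (0.69 ± 0.19), the aldolase Aldoa (0.68 ± 0.19) and Pfkfb1 (0.34 ± 0.11). None of the 27 was called with the Gapdh covariate or once Spi-60 replicates 1 and 5 were left out, and Pfkfb1 was also lost without any of Control replicates 1, 2 and 3.

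Among 68 mitochondrial ribosome genes 24 fell and 3 rose (median -0.32), led by Mrpl33, at 10.06, 9.92, 9.92 and 9.86 in Control and 8.98, 9.18 and 9.43 in Spi-60 (-0.74 ± 0.11, adjusted p = 5.71e-05), Mrpl13 (-0.81 ± 0.14), Mrps9 (-1.03 ± 0.18) and Mrps35 (-0.99 ± 0.17). Of 43 cytosolic ribosome genes 17 fell and 1 rose (median -0.35). Rpl35a read 10.61, 10.70, 10.63 and 10.58 in Control and 9.81, 10.01 and 10.19 in Spi-60 (-0.62 ± 0.12, adjusted p = 0.000589), and Rpl14 (-0.77 ± 0.16), Rps24 (-0.76 ± 0.16) and Rpl26 (-0.92 ± 0.21) fell alike. The animals of all these 8 genes did not overlap. The 8 were named for their small p, which favours such a gap, and 8.06% of all genes were lower without overlap. With the Gapdh covariate 4 mitochondrial and 2 cytosolic ribosome genes were lower, Mrpl33, Mrpl13 and Rps24 among them. Nucleolar genes fell in 9 of 30 and rose in 2, with the nucleolar organiser Ncl at -1.06 ± 0.16, Gnl2 at -1.21 ± 0.22, Nip7 at -1.05 ± 0.21 and Ebna1bp2 at -0.70 ± 0.14, of which Gnl2 passed with the Gapdh covariate. Of 49 translation factors 6 fell (12.2%) and 4 rose (8.16%), near the 10.7% and 7.93% of all genes. Among the falls were the helicase Eif4a2 (-1.17 ± 0.24) and Eif3j (-0.70 ± 0.15), and among the rises Eif5a (0.89 ± 0.14) and Eif3b (0.48 ± 0.11). With further quantile normalization the balance turned to 6 falls and 9 rises. The medians of the respiratory, ribosome and chaperone lists stayed below 0 under that scaling, at -0.31 to -0.18, where that of all probe sets was 0.02. Of 19 tRNA synthetases Vars1 (0.87 ± 0.26) and Yars1 (0.37 ± 0.11) rose and none fell (unadjusted 3 and 5), and without Control replicate 1 none rose and 2 fell.

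The chaperones fold new proteins and refold damaged ones. Of the 49 genes of the chaperone list 19 fell and 2 rose (38.8% lower against 10.7% of all genes, median -0.44). Pfdn5, a prefoldin subunit that hands nascent actin and tubulin to the folding ring, was 7.79, 7.23, 7.04 and 7.61 in Control and 5.69, 6.36 and 6.45 in Spi-60 (-1.13 ± 0.14, adjusted p = 7.24e-06). Hspe1, the lid of the mitochondrial folding chamber, was 11.31, 11.44, 11.53 and 11.34 in Control and 10.10, 10.60 and 10.89 in Spi-60 (-0.84 ± 0.14, adjusted p = 0.000223). Hsph1, which recharges Hsp70, was 5.52, 5.92, 5.68 and 5.72 in Control and 4.23, 4.93 and 5.20 in Spi-60 (-0.82 ± 0.14, adjusted p = 0.000298), and Hspa13 fell by 1.11 ± 0.19. In none of these genes, named for their small p, did the animals overlap (8.06% of all genes were lower without overlap). All but Hspe1 passed with the Gapdh covariate, under which 4 chaperone genes were lower. Without the 2 Spi-60 arrays highest on the first principal component, replicates 1 and 5, the count was 12, as it was with the beta-actin covariate. In the endoplasmic reticulum 4 of 26 stress genes fell, Ddit3 (-0.83 ± 0.19), Dnajc3 (-0.75 ± 0.18), Hsp90b1 (-0.76 ± 0.19) and Hspa5 (-0.53 ± 0.14), and 2 rose. These were 15.4% lower and 7.69% higher, against 10.7% and 7.93% of all genes.

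Chaperone genes are the classic targets of heat shock factors, whose element is built of inverted repeats of GAA. The 250 bases before the transcription start (RefSeq, GRCr8, first start listed for a gene) were available for 8051 genes, and they were searched for GAANNTTC, which reads the same on both strands. It occurred in 27.3% of 44 chaperone promoters against 4.96% of the promoters of all measured genes and 7.02% of all 27457 promoters of that length. Within the chaperones it was in 5 of 17 promoters of genes that fell and in 7 of 27 of the others. Among all genes 4.89% of those that fell, 5.3% of those that rose and 4.93% of the uncalled held it. Promoters of 3 of the fallen chaperones are shown 5′ to 3′ with the match in capitals, to place it against the start that follows the last base. They lie at chr13:74981240-74981489 (minus strand), chr9:64084077-64084326 (plus strand) and chr12:10427118-10427367 (plus strand) in that build.
Cacybp: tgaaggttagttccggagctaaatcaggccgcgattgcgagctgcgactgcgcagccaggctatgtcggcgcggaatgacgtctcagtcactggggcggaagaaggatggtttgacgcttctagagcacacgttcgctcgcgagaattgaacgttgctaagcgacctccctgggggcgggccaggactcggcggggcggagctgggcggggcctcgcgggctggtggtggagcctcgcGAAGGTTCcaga
Hspe1: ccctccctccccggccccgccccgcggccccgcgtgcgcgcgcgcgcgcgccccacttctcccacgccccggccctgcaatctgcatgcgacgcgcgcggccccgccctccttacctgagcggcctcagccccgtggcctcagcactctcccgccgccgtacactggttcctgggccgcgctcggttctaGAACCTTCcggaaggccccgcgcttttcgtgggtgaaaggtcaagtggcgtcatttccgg
Hsph1: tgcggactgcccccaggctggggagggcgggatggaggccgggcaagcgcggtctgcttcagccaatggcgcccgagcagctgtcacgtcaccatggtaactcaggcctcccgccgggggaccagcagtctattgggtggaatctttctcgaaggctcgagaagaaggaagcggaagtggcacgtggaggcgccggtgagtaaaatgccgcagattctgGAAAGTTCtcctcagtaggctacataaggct
In Cacybp and Hsph1 the match lies near the start and in Hspe1 further upstream. The GC box GGGCGG (both strands) was in 58.9% of promoters of genes that fell, 59.1% of those that rose and 53.1% of the uncalled, and GTAAACA, a forkhead core (both strands), in 2.16%, 1.4% and 2.11%. No test was made of these shares.

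**Figure D4:**
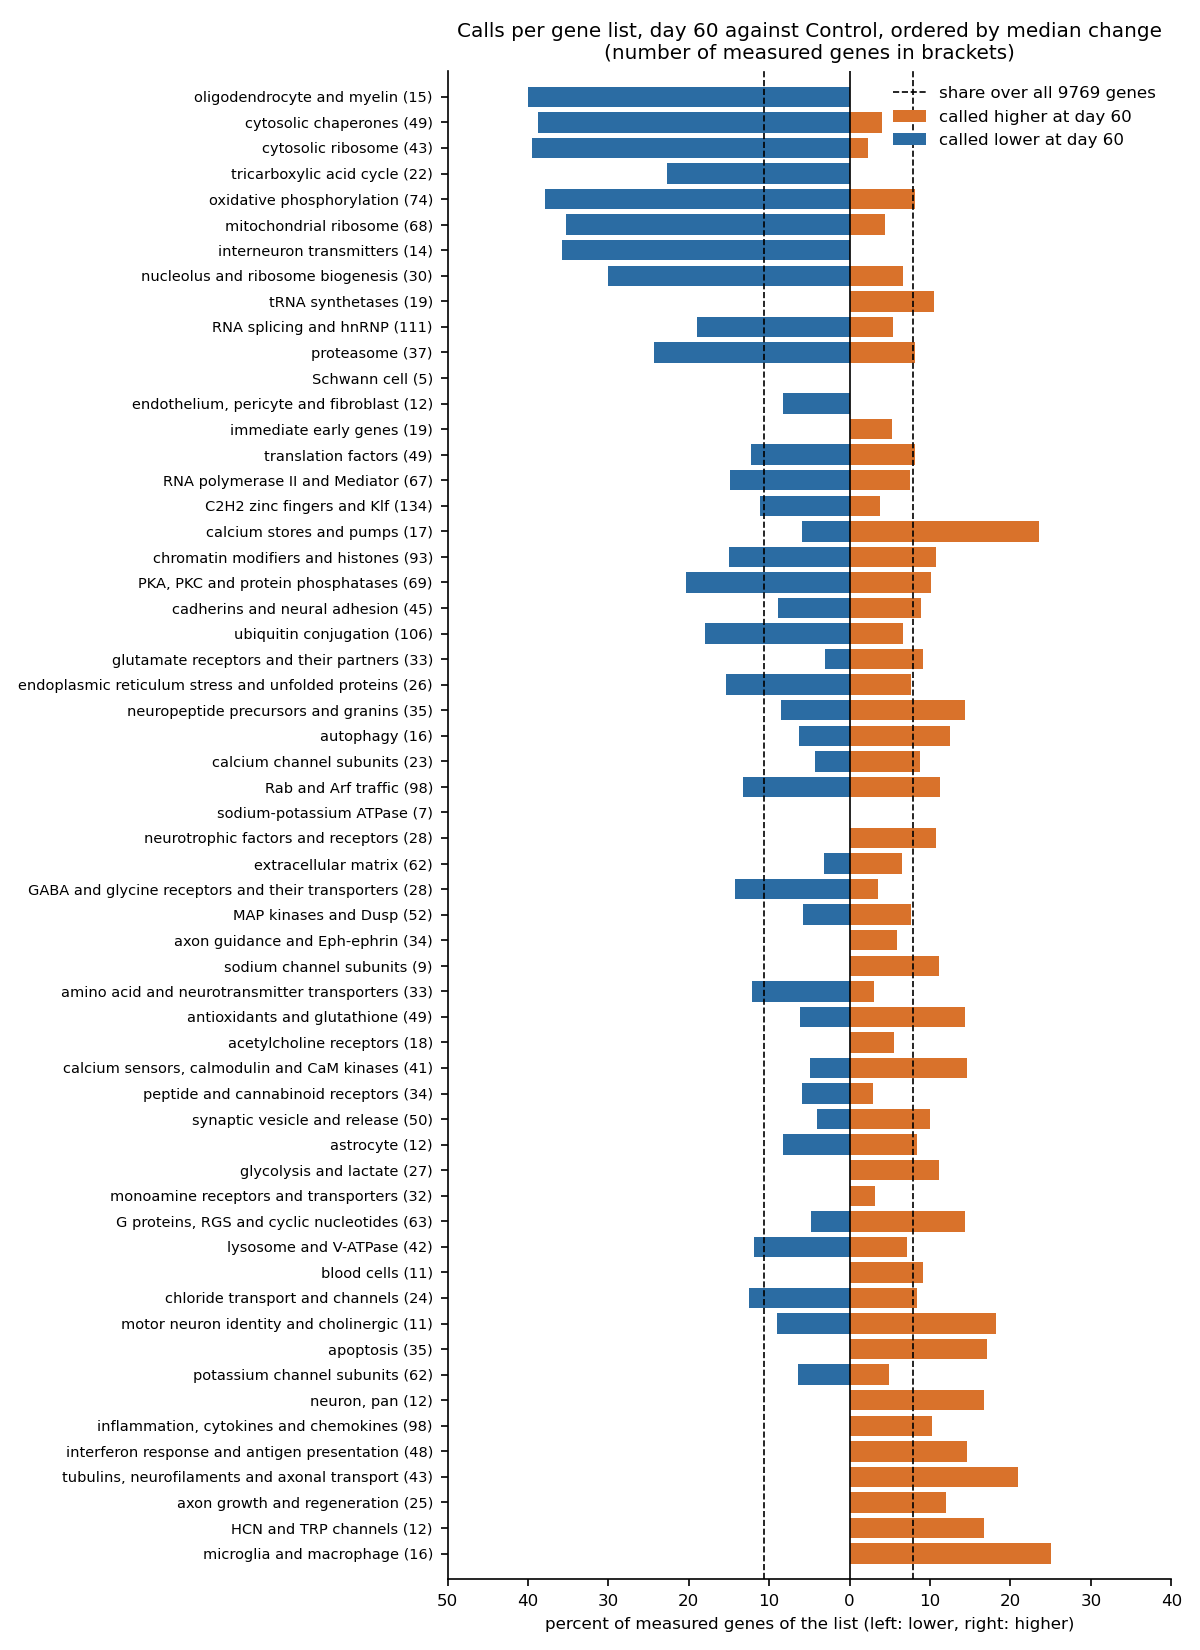
Bars give the share of measured genes of each of 58 lists called higher (right) and lower (left) at day 60, and the dashed lines the shares over all 9769 genes, 7.93% and 10.7%. Lists are ordered by their median difference, from oligodendrocyte genes (median -0.49) at the top to microglia genes (0.38) at the bottom, and the chaperone, ribosome and respiratory lists stand near the top.

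Among genes that set the excitability of a neuron each list held few calls. Over all genes 7.93% were called higher and 10.7% lower. The shares were 8.70% and 4.35% for calcium channels, 4.84% and 6.45% for potassium channels and 8.33% and 12.5% for chloride genes. They were 3.57% and 14.3% for GABA and glycine, 9.09% and 3.03% for glutamate and 2.94% and 5.88% for peptide receptor genes. Of monoamine genes 3.13% and of acetylcholine receptor genes 5.56% were higher. Of 23 calcium channel subunits 2 rose and 1 fell. Cacna1h, the pore of a T-type channel that opens near rest, rose by 0.86 ± 0.23 (adjusted p = 0.00938), from 5.35, 6.54, 6.72 and 6.54 in Control to 6.54, 7.10 and 7.95 in Spi-60, and lost the call without Control replicate 1. Cacnb1 rose by 0.39 ± 0.13, and the auxiliary subunit Cacna2d1 fell by 0.75 ± 0.24. Among 9 sodium channel subunits only Scn10a was called, 0.52 ± 0.12 at a low level. Of 62 potassium channel subunits 4 fell and 3 rose (2 and 4 with further quantile normalization, 2 and 1 without Control replicate 1 or 2). Beside Kcnc2, Kcna4, an A-type channel that delays firing, fell from 5.89, 5.75, 5.90 and 5.64 in Control to 4.35, 4.97 and 5.29 in Spi-60 without overlap (-0.89 ± 0.17, adjusted p = 0.000611), while Kcnq5, an M-type channel, rose by 0.49 ± 0.13 and Kcnh3 by 0.37 ± 0.11. Trpv2 and Trpv6, cation channels, rose by 0.85 ± 0.16 and 0.47 ± 0.12, 2 of 12 HCN and TRP genes, with none lower (unadjusted 5 and 0). The mean level of these 12 genes lay between 5.43 and 5.51 in Control and between 5.59 and 5.68 in Spi-60, without overlap and under the array medians. Other lists did not overlap either, among them apoptosis (5.84 to 5.89 and 5.91 to 6.03) and zinc fingers (6.22 to 6.28 and 6.11 to 6.19). Trpv2 reached 8.46, 8.60 and 8.70 from 7.26, 8.15, 7.19 and 8.32 and passed with the Gapdh covariate.

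Chloride handling decides whether GABA and glycine inhibit. Slc12a2, the importer NKCC1 that raises chloride in the cell, fell from 10.18, 9.97, 10.09 and 9.33 in Control to 8.31, 8.78 and 9.50 in Spi-60 (-1.11 ± 0.23, adjusted p = 0.00143), with Control replicate 4 inside the Spi-60 range. The intracellular channel Clic2 (-1.01 ± 0.23) and the regulator Clns1a (-0.87 ± 0.18) also fell, and the anion exchanger Slc4a2 rose from 5.50, 6.04, 5.85 and 5.81 in Control to 6.44, 6.63 and 6.79 in Spi-60 (0.82 ± 0.17). Of 24 genes 3 were lower and 2 higher. Slc12a2 and Clic2 passed with the Gapdh covariate.

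GABA and glycine open chloride channels, and glutamate opens the cation channels that excite. Of 28 GABA and glycine genes 4 fell, Slc32a1 and Gad1 with the receptor subunits Gabrb1 (-0.97 ± 0.28) and Gabbr2 (-0.56 ± 0.16), and Gabrd rose by 0.37 ± 0.10. Gabrb1 read 8.93, 8.29, 7.96 and 7.82 in Control and 6.32, 7.28 and 8.40 in Spi-60 and Gabbr2 8.92, 8.35, 8.47 and 7.93 in Control and 7.31, 7.92 and 8.17 in Spi-60, both with overlap. Without Control replicate 1 none of these falls passed. Of 33 glutamate genes 3 rose, the obligate NMDA subunit Grin1, at 8.00, 7.77, 7.69 and 7.80 in Control and 8.03, 8.45 and 8.66 in Spi-60 (0.58 ± 0.14, adjusted p = 0.00583), Grina (0.60 ± 0.18) and the kainate subunit Grik5 (0.34 ± 0.11), and Slc17a6 fell. Without Control replicate 2 or 3 a single glutamate gene rose. Of 32 monoamine genes only the adrenergic receptor Adra1d was called (0.59 ± 0.17, adjusted p = 0.0176), with 4 higher and 1 lower at an unadjusted p under 0.05, so that no serotonin receptor passed. Its call was lost with the Gapdh covariate and without Control replicate 1 or 3. Adra1d read 5.78, 6.07, 5.87 and 6.28 in Control and 6.41, 6.54 and 7.12 in Spi-60, close to the array median. Chrna6 rose by 0.33 ± 0.09, alone among 18 acetylcholine receptor genes. Of 34 peptide and cannabinoid receptors Cnr1 and the somatostatin receptor Sstr1 fell (-0.67 ± 0.17) and the substance P receptor Tacr1 rose, from 6.32, 6.25, 6.32 and 6.37 in Control to 6.41, 6.94 and 7.59 in Spi-60 (0.70 ± 0.18, adjusted p = 0.00905). None of 7 sodium-potassium ATPase genes was called by limma (1 at an unadjusted p under 0.05).

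**Figure D5:**
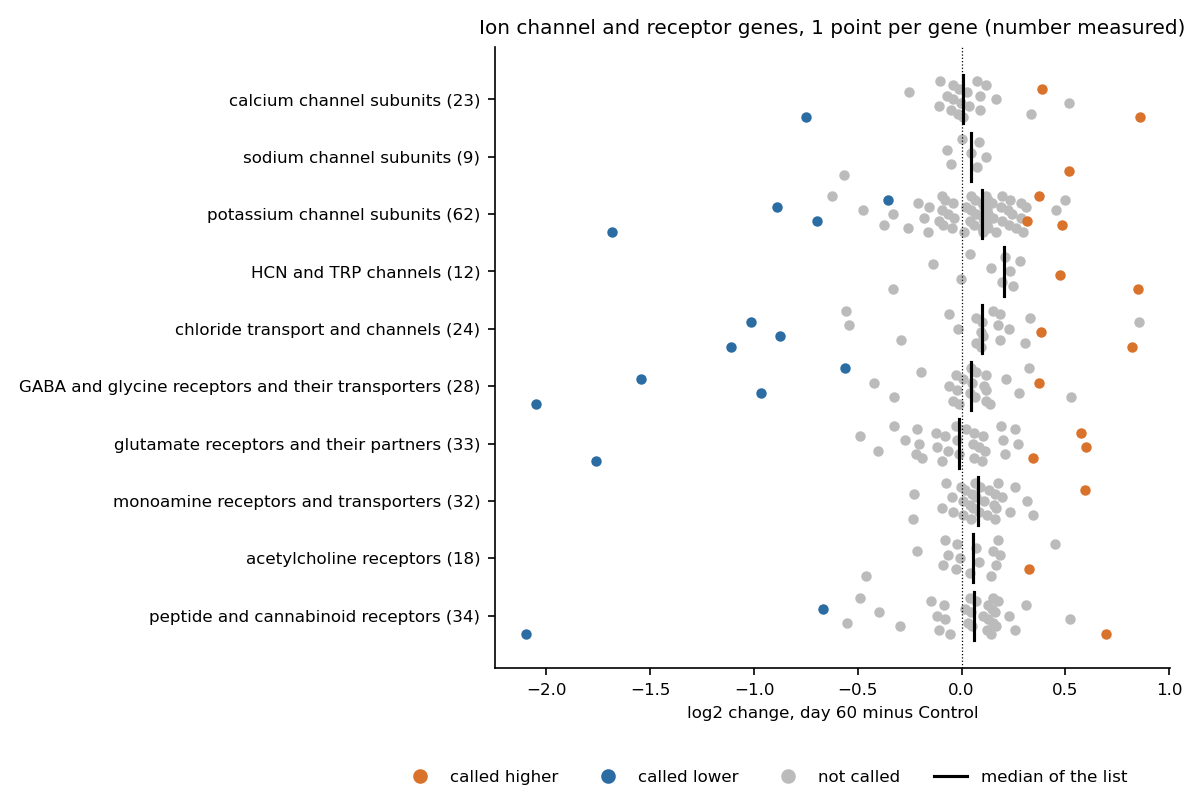
Each point is 1 gene, coloured by its call, and each bar the median of its list, with the number of measured genes in brackets and the log2 difference between day 60 and Control on the x axis. Most genes of these 10 lists lie within 0.5 of 0, and the calls farthest from 0 are falls, Cnr1 at -2.10 among them.

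Calcium genes changed in both directions. Vsnl1, a calcium sensor of neurons, had the largest fall of any gene named here, from 10.32, 9.95, 9.44 and 8.08 in Control to 6.40, 7.01 and 8.22 in Spi-60 (-2.36 ± 0.36, adjusted p = 0.000104), and its second probe set fell too (-0.92 ± 0.19). It passed with the Gapdh covariate. Control replicate 4 was again the one that overlapped, and the other injured groups differed from Control by -2.18, -2.32 and -2.78 at days 2, 7 and 21. Of 41 sensors, calmodulin and kinase genes 6 rose (14.6% against 7.93% of all genes), among them Anxa6 and Anxa2 (0.78 ± 0.21), and 2 fell, Vsnl1 and Calb1. Without Control replicate 1 or 2 there were 2 rises. In the stores 4 of 17 genes rose, including the inositol trisphosphate receptor Itpr3 (0.98 ± 0.19), the store sensor Stim1 (0.48 ± 0.13) and its channel Orai1 (0.49 ± 0.15), and the mitochondrial exchanger Letm1 fell (-0.62 ± 0.15). Stim1 differed from Control by 0.01, 0.06 and -0.02 at days 2, 7 and 21, and its call was lost with the Gapdh covariate and without Control replicate 3, which left 1 rise in its list.

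Peptides and the release machinery changed in both directions. Uts2, the urotensin precursor made by motor neurons, went from 10.50, 11.22, 11.64 and 11.65 in Control to 12.16, 12.26 and 12.59 in Spi-60 (1.06 ± 0.18, adjusted p = 0.000335) and passed with the Gapdh covariate. Chgb, a granin of dense-core vesicles, went the other way, from 10.64, 10.91, 10.75 and 10.74 in Control to 8.90, 9.57 and 9.94 in Spi-60 (-1.28 ± 0.23, adjusted p = 0.000366). Of 35 peptide precursors and granins 5 rose and 3 fell (14.3% and 8.57%, against 7.93% and 10.7% of all genes). Without Control replicate 2 there were 3 rises. Of 50 vesicle and release genes 5 rose, Syt3 with synaptophysin Syp, at 9.77, 9.08, 9.03 and 9.25 in Control and 10.18, 10.30 and 10.60 in Spi-60 (1.05 ± 0.17, adjusted p = 0.000133), and Napa (0.70 ± 0.15) among them, and 2 fell.

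Cytoskeleton genes were called in 1 direction. Of 43 tubulin, neurofilament and transport genes 9 were higher and none lower (20.9% against 7.93% of all genes, unadjusted 15 and 1). Map1lc3a, a microtubule-associated protein that also marks autophagosomes, was 8.82, 8.57, 8.50 and 8.69 in Control and 9.36, 9.49 and 9.83 in Spi-60 (0.88 ± 0.17, adjusted p = 0.000786), Tubb5 rose by 0.50 ± 0.10, and the dynactin subunits Dctn1 and Dctn2, which couple dynein to its cargo, by 0.51 ± 0.11 and 0.42 ± 0.09. None of the 9 was called with the Gapdh covariate, and 9 of the list were called higher with that of beta-actin. Genes of axon growth rose in 3 of 25, with none lower (12% higher against 7.93% of all genes, unadjusted 8 and 1). They were the collapsin response mediators Dpysl4 (0.70 ± 0.13) and Dpysl5 (0.50 ± 0.15) and the small heat shock protein Hspb1 (0.83 ± 0.20). Hspb1 read 11.50, 12.20, 12.04 and 12.38 in Control and 12.48, 12.86 and 13.21 in Spi-60. Dpysl4 passed with the Gapdh covariate. Of 28 neurotrophic genes 3 rose and none fell (10.7% higher against 7.93% of all genes, unadjusted 6 and 3). Beside Ngfr these were the GDNF receptor Gfra1, at 7.98, 7.89, 7.83 and 8.55 in Control and 8.59, 8.99 and 9.46 in Spi-60 (0.92 ± 0.21, adjusted p = 0.00384), and Gfra4 (0.29 ± 0.10). Of 34 axon guidance genes Nrp1 (0.83 ± 0.27) and Ephb6 (0.53 ± 0.16) rose (5.88%, under the 7.93% of all genes), and neither was called without Control replicate 1 or 2, with either 3′ covariate or without Spi-60 replicates 1 and 5.

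Of 48 interferon response and antigen presentation genes 7 rose and none fell (14.6% against 7.93%, unadjusted 11 and 1), and 4 without Spi-60 replicates 1 and 5. After Ifitm3 came Ifitm10, at 9.60, 9.97, 9.72 and 10.09 in Control and 10.19, 10.58 and 11.14 in Spi-60 (0.78 ± 0.17), the class II gene RT1-Ba (0.45 ± 0.11) and the peptide-loading factor Tapbp (0.36 ± 0.10). Among 98 inflammation genes 10 rose and none fell (10.2% against 7.93%, unadjusted 21 and 1), with Csf1r, its ligand Csf1 (0.40 ± 0.09), the NF-kappaB inhibitor Nfkbib (0.68 ± 0.14) and the chemokine Ccl19 (0.58 ± 0.16). Leaving out single animals gave 5 to 9 rises in this list (5 without Control replicate 1, 2 or 4), and leaving out Spi-60 replicates 1 and 5 gave 3. Apoptosis genes rose in 6 of 35 (17.1% against 7.93% of all genes) with none lower (unadjusted 9 and 0), and in 3 without Control replicate 2. They were led by the pro-death Bad, at 8.26, 7.77, 7.78 and 8.02 in Control and 8.47, 8.57 and 8.70 in Spi-60 (0.61 ± 0.09, adjusted p = 5.71e-05), which passed with the Gapdh covariate, then Diablo (0.34 ± 0.10), Bcl2l10 (0.37 ± 0.10), which passed it too, and Bcl2l14 (0.33 ± 0.09). The immediate early gene Fosl1 rose by 0.98 ± 0.22 and was the only call among 19 (5.26% higher, under the 7.93% of all genes, unadjusted 2 and 1). The list median was -0.10, and the largest rise in the list, 1.83, was not called.

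Splicing, proteasome and ubiquitin genes held more falls than rises, to a degree that depended on the fit. Falls also outnumbered rises over all genes (10.7% lower and 7.93% higher). Lower were 18.9% of splicing, 24.3% of proteasome and 17.9% of ubiquitin genes. Of lysosome genes 11.9% were lower and 7.14% higher, near the shares over all genes. Of 111 splicing genes 21 fell and 6 rose (18.9% lower). Without Control replicate 2 it was 9 and 4, without Spi-60 replicates 1 and 5 also 9 and 4, and with the beta-actin covariate 8 and 7. Rbm8a, of the exon junction complex, was 9.13, 8.88, 9.05 and 9.09 in Control and 7.15, 7.72 and 7.88 in Spi-60 (-1.39 ± 0.19, adjusted p = 2.81e-05), while the splice-site factor U2af2 rose from 9.25, 8.85, 8.77 and 8.76 in Control to 9.75, 9.91 and 10.36 in Spi-60 (1.06 ± 0.13, adjusted p = 7.24e-06). Both passed with the Gapdh covariate, but dimmer probe sets of Rbm8a (0.10 ± 0.10, at a Control mean of 7.09) and of U2af2 (-0.08 ± 0.14) did not pass. Snrpa1 (-0.85 ± 0.15) and Hnrnpd (-0.83 ± 0.17) fell. Of 37 proteasome genes 9 fell, with Psmc5 at -0.76 ± 0.15 and Psmd12 at -0.68 ± 0.16, and 3 rose, with Psmb7 at 0.76 ± 0.13 and Psmd2 at 0.49 ± 0.11. With the beta-actin covariate 3 proteasome genes were lower and 3 higher, with further quantile normalization 6 and 5, and Psmc5 and Psmd2 passed with the Gapdh covariate. Of 106 ubiquitin genes 19 fell and 7 rose, with Usp47 at -0.78 ± 0.14 and the activating enzyme Uba1 at 1.00 ± 0.17, and with further quantile normalization 17 fell and 11 rose. Among lysosome genes the cathepsins Ctsd (0.88 ± 0.16) and Ctsb (0.55 ± 0.14) rose and the thioesterase Ppt1 fell (-0.74 ± 0.20), 3 up and 5 down of 42 (7 and 2 with further quantile normalization, and 1 down without Control replicate 3). Of 16 autophagy genes 2 rose and 1 fell, the starter Becn1 (-0.58 ± 0.12).

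Signalling and nuclear lists held calls in both directions. Kinase anchors and phosphatases fell in 14 of 69 (20.3% against 10.7%) and rose in 7, with 9 falls without Control replicate 2 or 3. Akap9 went from 8.64, 9.15, 9.12 and 8.85 in Control to 7.39, 7.74 and 8.04 in Spi-60 (-1.21 ± 0.18, adjusted p = 6.99e-05) and the phosphatase subunit Ppp2r5c from 6.87, 7.11, 7.11 and 7.13 in Control to 5.61, 5.93 and 6.24 in Spi-60 (-1.14 ± 0.18, adjusted p = 0.000104), whereas its relative Ppp2r5b rose by 0.74 ± 0.11, and all of them passed with the Gapdh covariate. Of 63 G protein and cyclic nucleotide genes 9 rose and 3 fell (5 rose without Control replicate 1), with Rgs3, which shortens G protein signals, at 8.82, 9.17, 9.12 and 9.58 in Control and 9.97, 10.37 and 10.67 in Spi-60 (1.14 ± 0.21, adjusted p = 0.000553) and Rgs14 at 0.58 ± 0.11. Rgs3 passed with the Gapdh covariate. Of 98 membrane traffic genes 11 rose and 13 fell (17 and 7 with further quantile normalization, 7 falls without Control replicate 2 or 3 and 6 without replicate 4), with Rab11b at 0.74 ± 0.10 and Rab28 at -0.68 ± 0.11, both passing with the Gapdh covariate. Chromatin genes rose in 10 and fell in 14 of 93 (6 and 7 without Control replicate 2), with Brd8 at -1.12 ± 0.19, which passed with the Gapdh covariate. Zinc finger genes rose in 5 and fell in 15 of 134 (11.2% against 10.7% of all genes), with 4 falls without Control replicate 3 and Zfp638 at -1.04 ± 0.21. RNA polymerase II and Mediator genes rose in 5 and fell in 10 of 67 (7 and 6 with further quantile normalization, 6 falls without Control replicate 3), with Med7 at -1.28 ± 0.28 and Med24 at 0.74 ± 0.16. In 49 antioxidant genes 7 rises, Gstp1 (0.51 ± 0.13) among them, stood against 3 falls, the glutaredoxins Glrx3 (-0.67 ± 0.12) and Glrx2 (-0.67 ± 0.16) among them. Glrx3 passed with the Gapdh covariate, and without Control replicate 2 there were 3 rises. The last 4 lists held few calls in either direction (higher and lower), the extracellular matrix with 4 and 2 of 62, adhesion with 4 and 4 of 45, MAP kinases with 4 and 3 of 52, and amino acid transporters with 1 and 4 of 33, and in each of the 4 leaving out single Control animals moved a count by more than 1.5 times.

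Some genes had dimmer probe sets beside the one that stood for them. Of the called genes not yet described in this way, those of Akap9, Ap3b2, Car2, Cd8a, Csf1, Gabbr2, Gabrd, Gad1, Gfra1, Igfbp6, Rab11b, Sstr1, Stim1, Syt3, Tacr1, Tubb5, Usp47, Zfp638 and Zranb1 did not pass. One of Ermn (-1.29 ± 0.29) and those of Mrps9 (-0.78 ± 0.22) and Abcb1a (-1.12 ± 0.31) fell, and those of Rundc3a (0.41 ± 0.14) and RT1-Ba (0.37 ± 0.12) rose.

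Day 60 was also set against day 21, the other late group, which came from the same earlier study, so that the study did not differ. The Gapdh 3′ minus 5′ difference did differ. It was 2.76 to 3.54 in Spi-21 replicates 1 to 4 and 1.13 to 1.66 in replicates 5 to 8, against 2.99 to 3.97 in Spi-60. With it as a covariate no probe set was called between the 2 days. Of 12913 probe sets 9 were called (0.0697%), 6 lower and 3 higher at day 60. Arpc5l, a subunit of the actin-nucleating Arp2/3 complex, differed most, by -0.96 ± 0.17 (adjusted p = 0.0324), and against Control it read -0.50 ± 0.20 at day 60 and 0.45 at day 21. The V-ATPase subunit Atp6v1g1 (-0.62 ± 0.12), the deubiquitinase Zranb1 (-0.59 ± 0.12), the nucleolar protein Nop58 (-0.56 ± 0.11), the ribosome-bound chaperone Dnajc2 (-0.54 ± 0.11) and the phospholipase Pla2g6 (-0.52 ± 0.10) were lower at day 60. The transcription factor subunit Nfyc (0.49 ± 0.09), the DNA glycosylase Neil1 (0.47 ± 0.09) and the respiratory supercomplex factor Higd2a (0.43 ± 0.08) were higher. Of these 9, Nop58, Dnajc2, Zranb1 and Atp6v1g1 were also lower and Higd2a higher against Control, and the other 4 were not called there. Higd2a read 6.98, 6.69, 6.55 and 6.74 in Control and 7.11, 7.39 and 7.58 at day 60 (0.63 ± 0.10, adjusted p = 0.000173) and passed with the Gapdh covariate, with 0.27, 0.34 and 0.20 at days 2, 7 and 21 in the earlier groups. The count rested on single animals, since leaving out Spi-21 replicate 5 or 7 left none (limma) and leaving out Spi-21 replicate 2 or 4 gave 45.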

How the data were processed

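RNA of microdissected tail motor neurons was hybridised by the authors to Affymetrix RAT230 2 chips, 1 per animal. The deposited values are log2 RMA summaries (tool from the submitters' processing notes, version not given in the sources used here), background-compensated and normalised over all arrays. Of 12919 probe sets, 6 chip controls were kept for array quality only and 12913 were tested. Platform annotation gave 11880 of them 1 gene symbol, 320 several and 713 none. Animals were grouped by their labels, and limma 3.58.1 (R 4.3.3) was fitted to the 5 group means of 31 arrays. No depth exists for arrays, and their number limits the precision. In simulated data the fit found 46.3% of added day 60 differences of 0.5, 91.0% of those of 1 and 100% of those of 2. The simulated noise was independent between probe sets, and few were changed (67, 67 and 66 of 12913). The data held 2207 calls and shifts of whole arrays, so these rates need not hold for them. A difference near 0.5 that did not pass is therefore not shown to be absent.

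A gene stood in a list by its brightest probe set, and lists were counted, not tested. Named were the 15 largest calls without overlap in each direction, up to 4 genes of smallest p per list, the brightest marker genes and all calls against day 21. The comparison, lists and markers were chosen with earlier results of these data known. Fits with 2 groups, array weights, further quantile normalization, 3′ covariates, bright probe sets, another variance prior, a replicate block or fewer animals, and counts at the study's false discovery rate of 0.02, were alternatives. Of these the beta-actin covariate and the fit without Spi-60 replicates 1 and 5 were added after seeing the data.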

Additional observations from a re-analysis of the deposited data

Results flagged for a closer look

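Within the groups of 4 Control or 8 Spi-60 animals, 1 animal stood apart from the rest by Dixon's test in 25 of 424 groups examined, where chance alone gives about 1 in 20. In Control, replicate 4 was the low one for Penk (6.67), Gad1 (7.24), Ermn (7.03), Mog (6.75), Cldn11 (11.47) and Ccl19 (4.32) and the high one for Anxa2 (11.22), Hspa5 (10.74) and Kcnq5 (5.67). Replicate 1 was low for Cacna1h (5.35) and Ppp2r5c (6.87), replicate 3 was low for Uba1 (7.83) and Med24 (7.01) and high for Chrna6 (5.58), and replicate 2 was high for Zfp638 (8.70), Gstp1 (8.92) and the beta-actin 3′ minus 5′ difference (3.16). In Spi-60, replicate 4 was high for Tmem178a (6.77) and Adra1d (7.12), replicate 8 for Gad1 (8.75) and Lyz2 (10.19), and replicate 7 for Nrp1 (7.71). Sstr1 was low in replicate 1 (4.96), Hsph1 in replicate 6 (4.23) and Pfdn5 in replicate 7 (5.69).

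Between days 60 and 21, 9 genes differed by the limma test of the difference itself, in which the Control mean does not enter. The log2 difference was -0.96 for Arpc5l, -0.62 for Atp6v1g1, -0.59 for Zranb1, -0.56 for Nop58, -0.54 for Dnajc2 and -0.52 for Pla2g6. It was 0.43 for Higd2a, 0.47 for Neil1 and 0.49 for Nfyc.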

How the results depend on the processing

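Among the 214 named genes, none of those called at day 60 reversed its sign under the alternatives run. The Gapdh covariate changed the day 60 counts most, to 267 calls (97 higher, 170 lower) from 2207 (930 and 1277). The beta-actin covariate gave 1471 (781 lower), the fit without Spi-60 replicates 1 and 5 gave 1297 (547 higher, 750 lower), a false discovery rate of 0.02 gave 1454 (597 higher), array weights gave 3233 (1436 higher) and the 2 groups alone 2964. Leaving out single animals gave 1420 to 2261 calls (590 to 980 higher, 830 to 1302 lower), lowest without Control replicates 2 (1420) and 3 (1446). Of the probe sets called at day 60, 201 were called in all 20 fits to all probe sets and 911 in the 19 without the Gapdh covariate. With the mean of all its probe sets for each gene, 805 genes were higher and 1048 lower. Against day 21 the 9 calls became 1 with the 2 groups alone, 29 among bright probe sets, 2 with the intensity trend, 24 with the beta-actin covariate, 0 to 45 without single animals, 10 with array weights, 0 with the Gapdh covariate (1535 at an unadjusted limma p under 0.05) and 0 at a rate of 0.02. The cause was not tested. Replicate numbers did not pair the animals (correlations of deviations of same-numbered animals -0.17 to 0.14), and a replicate block gave 2236 calls at day 60 and 40 against day 21. The Control group of 4 animals, the 3′ difference that moved with the group and the origin of the Spi-60 arrays in another study limit every difference between day 60 and Control.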
